A study of Mus musculus with 34 samples.

Results

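The change from the zygote to the late 2-cell stage was measured in single mouse embryos that had all been injected as zygotes with mRNA for wild-type (WT) CHK1, a checkpoint kinase that delays mitosis while DNA is damaged or incompletely copied. The 9 embryos described here, of 34 in the series, were chosen by their labels alone: 5 WT zygotes and 4 WT late 2-cell embryos, both with the treatment given as none, so without the CHK1 inhibitor used on other embryos of the series. The 5 zygotes served as the reference. Culture was in KSOM medium. The zona pellucida, the egg's coat, was removed, each embryo was lysed on its own, and cDNA was made by SMART-seq2 and sequenced from Tn5-cut Nextera libraries. The labels name no strain, parent, litter or hour of collection, and no embryo without injected mRNA was analysed here. The p-values therefore measure the spread between these embryos, which may share parents, and every embryo compared here carried extra CHK1 mRNA.

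At fertilisation the mouse genome is silent, and the embryo runs on mRNA and protein stored during oocyte growth. Transcription starts weakly in the zygote and strongly during the 2-cell stage, when a set of multicopy gene families is switched on for a short time and the general machinery of growth is made anew. Stored maternal mRNA loses its poly(A) tail and is destroyed over the same interval. SMART-seq2 primes on poly(A), so in all results below a longer tail and more copies of an mRNA cannot be told apart.

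Total counts were 7400023 to 8848157 in the zygotes and 5879281 to 6888168 in the late 2-cell embryos, and 12267 to 12824 genes against 13826 to 14746 reached 1 CPM (counts scaled to library size). Log2 CPM correlated at 0.956 to 0.965 between zygotes, 0.872 to 0.907 between late 2-cell embryos and 0.414 to 0.535 across the stages, over the 13727 tested genes, which share their libraries and are not replicates. Genes that do not code for protein took 16.5% to 21.3% of the zygotes' counts and 28.1% to 31.7% of those of late 2-cell embryos. Among them was CT010467.1, a locus on chromosome 17, with 4.52% to 6.59% and 9.16% to 12.03%. Each stage came in its own deposited table, so the stage and anything that differed between the tables cannot be told apart, and all levels are relative, since no added RNA standard is described. An embryo has 1 cell at the first stage and 2 at the second, and fewer cells and less RNA per cell cannot be told apart in such values. CPM below are scaled with the factors of the trimmed mean of M values (TMM), errors of means are SD over 5 zygotes or 4 late 2-cell embryos, and those of log2 fold changes (late 2-cell over zygote) are SE.

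Chek1 (ENSMUSG00000032113.16, chr9:36708482-36727065 in GRCm38), the injected gene, is described first. Its level was 8351, 5020, 9095, 5649 and 5024 CPM in zygotes 1 to 5. Late 2-cell embryos 1 to 4 held 414, 396, 387 and 656 CPM. All zygotes lay above all late 2-cell embryos, and Chek1 fell by 3.84 ± 0.29 on the log2 scale (edgeR adjusted p = 1.1e-07, exact two-sided permutation p = 0.0159, the smallest that 126 splits of 5 against 4 allow). By FPKM, which is scaled to transcript length as well as library size and is used here to set genes side by side, Chek1 was rank 8 of all genes in zygotes at 6034 ± 2113 and rank 205 in late 2-cell embryos at 431 ± 148. Injected and maternal Chek1 mRNA were not separated, and no embryo without injected mRNA was analysed. The fall therefore checks neither the injection nor the labels.

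The transcriptome was remade between the stages. Of 13727 genes that passed the low-count filter, 9610 (70.0%) differed at an adjusted p under 0.05 in edgeR's quasi-likelihood test. There were 4986 that rose (36.3% of those tested) and 4624 that fell (33.7%), around a median log2 fold change of -0.01. At least 4-fold rises numbered 3476 (25.3%) and at least 4-fold falls 2502 (18.2%). In 4345 genes (31.7%) all late 2-cell embryos lay above all zygotes, and in 4248 (30.9%) below. These shares are the background for every count of a gene group below.

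**Figure D1:**
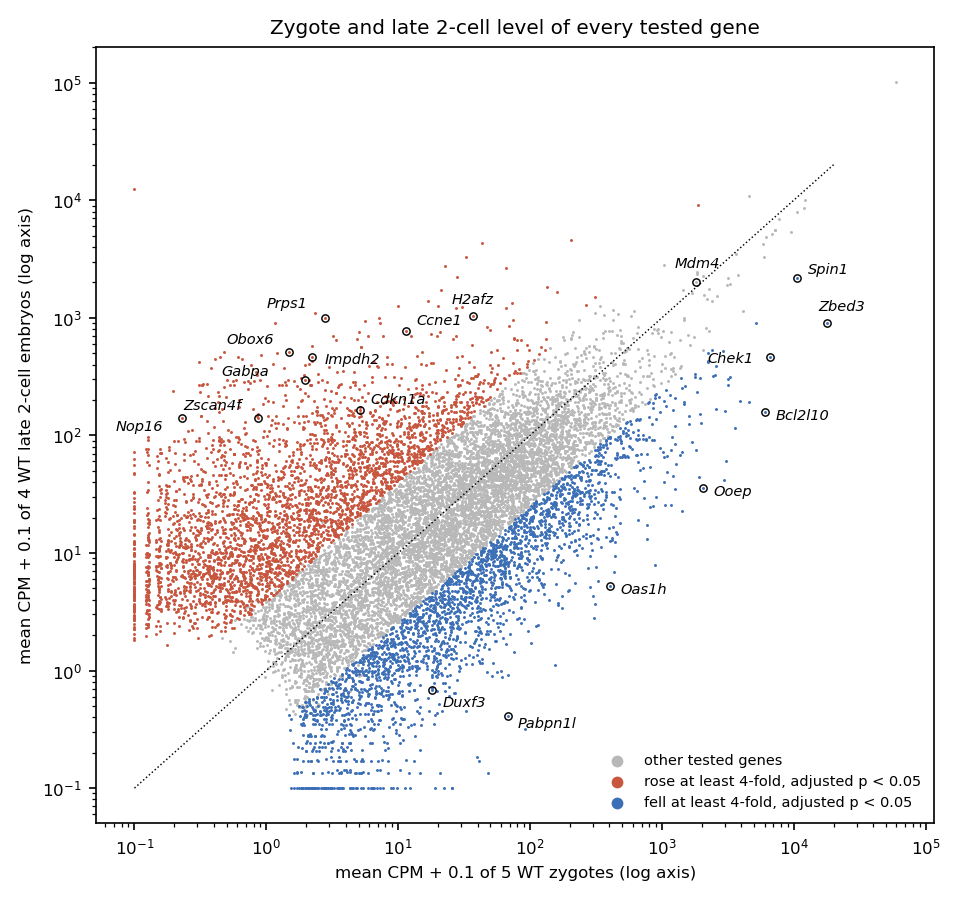
Mean CPM + 0.1 of each tested gene in 5 WT zygotes (x axis, log scale) and 4 WT late 2-cell embryos (y axis, log scale); red and blue points rose or fell at least 4-fold with an edgeR adjusted p under 0.05, and the dotted line marks equal levels. Obox6 and Nop16 lie far above the line, Pabpn1l and Oas1h far below it, and Mdm4 on it.

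More genes went from almost nothing to a clear level than the reverse. Under 1 CPM in all 5 zygotes and at least 10 CPM in all 4 late 2-cell embryos were 242 genes, whereas 17 showed the opposite pattern, and no count at all in 1 stage with at least 10 CPM throughout the other was seen in 12 and 4 genes, the 4 being Bank1, Npffr2, Gm16144 and Gm4981. Atp1b2, a beta subunit of the sodium pump, had no count in any zygote and 63.3, 57.3, 57.2 and 110 CPM in the late 2-cell embryos, at least 184-fold higher than 3 counts per library. Ifi35, an interferon-induced gene, was likewise at 0 and then at 90.1, 79.9, 30.1 and 49.9 CPM, at least 160-fold higher. Tsc22d3, a glucocorticoid-induced leucine zipper gene, went from 0 to 98.01, 8.27, 42.5 and 73.1 CPM, and its late 2-cell values spread over a wide range. Stac2 and Zfp622, with 1 count each over the 5 zygotes, reached 91.6 ± 19.6 and 96.1 ± 26.6 CPM. Zfp622 encodes a zinc finger protein of ribosome assembly.

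The largest fitted rise of all belonged to AY036118 on chromosome 17, with no count in zygotes and 8418, 10700, 13340 and 17200 CPM in the late 2-cell embryos. It lies inside CT010467.1 on the same strand, and all of its 50-base stretches also occur there, so the estimate of how reads divide between the 2 is uncertain. AY036118 also overlaps Gm42418 on the opposite strand. In R442Q embryos, fitted on their own, its rise was only 2.37 ± 0.36. At the other end, Bank1, a B cell scaffold gene, measured 19.2, 24.9, 24.8, 31.04 and 27.4 CPM in zygotes and 0 in all 4 late 2-cell embryos, at least 57.4-fold lower. Npffr2, a neuropeptide receptor gene, fell in the same way from 18.9 ± 2.49 CPM to 0, at least 42.6-fold lower. Cldn8, a claudin of tight junctions, kept 1 count over the 4 late 2-cell embryos after 48.1 ± 18.4 CPM, Ccdc3 kept 2 counts after 39.3 ± 7.66, and Gm813 kept 6 after 91.3 ± 11.1. All 3 fell with an edgeR adjusted p of at most 8.6e-08.

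The families that mark the 2-cell stage are the first of the groups described. The promoters of 6 of their members are shown because the letters TATAA recur in them upstream of the start. Each window runs from 100 bases before the RefSeq start to 20 after it (GRCm38.p6), 5′ to 3′ on the gene's strand. Capitals mark TATAA and the letters GGATTA or their reverse complement TAATCC, a homeobox-type element, where they were found. The windows are Zscan4c at chr7:11005645-11005764 (plus strand), Zscan4f at chr7:11397815-11397934 (plus strand), Zscan4d at chr7:11166129-11166248 (minus strand), Zfp352 at chr4:90218720-90218839 (plus strand), Pramel4 at chr4:144059025-144059144 (plus strand) and Obox3 at chr7:15639758-15639877 (minus strand).
Zscan4c: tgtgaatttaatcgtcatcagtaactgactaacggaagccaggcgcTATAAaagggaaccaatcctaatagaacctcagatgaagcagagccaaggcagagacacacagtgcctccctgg
Zscan4f: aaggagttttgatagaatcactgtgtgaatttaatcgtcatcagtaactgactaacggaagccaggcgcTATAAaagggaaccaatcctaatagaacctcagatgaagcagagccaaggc
Zscan4d: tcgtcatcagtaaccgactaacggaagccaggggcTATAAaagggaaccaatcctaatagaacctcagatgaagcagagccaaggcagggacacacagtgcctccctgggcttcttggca
Zfp352: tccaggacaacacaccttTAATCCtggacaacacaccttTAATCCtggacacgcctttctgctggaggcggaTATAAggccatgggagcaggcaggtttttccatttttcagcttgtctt
Pramel4: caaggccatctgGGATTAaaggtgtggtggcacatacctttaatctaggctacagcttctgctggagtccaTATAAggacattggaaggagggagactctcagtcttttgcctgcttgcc
Obox3: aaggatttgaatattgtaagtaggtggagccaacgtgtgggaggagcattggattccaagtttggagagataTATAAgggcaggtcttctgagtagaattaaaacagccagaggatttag
Aligned on TATAA over 120 bases, the Zscan4c and Zscan4f promoters had 119 bases in common, Zscan4c and Zscan4d 117, and Zscan4f and Zscan4d 118. TATAA on the gene's strand between 60 and 15 bases before the start was present in 2.92% of the 9903 tested genes with a promoter in the table (of 13727), in 4.77% of those that rose at least 4-fold and in 3.35% of those that fell at least 4-fold. Among members of the transient families outside Zscan4 it was found in 10 of 16 promoters, and in the Zscan4 family in 3 of 4. The exception was Zscan4d, where TATAA begins at -65 from the annotated start, outside those bounds, against -54 in Zscan4c and -31 in Zscan4f. GGATTA on either strand anywhere in the window from 250 bases before to 50 after the start was in 6.17% of all promoters, 10 of those 16 and none of the 4. AAGGTCA, the letters bound by NR5A2-type receptors, searched on both strands, was in 3.31% of all promoters in 4 of 4 Zscan4 promoters and in none of the 16. GGGCGG, the GC box searched on both strands, was in 61.7% of all promoters and in none of the 16 or the 4. These are matches of letters in near-identical copies, not measured binding sites.

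Zscan4 genes encode SCAN-domain zinc finger proteins best known from late 2-cell embryos and from work on telomeres in embryonic stem cells. Of 6 listed genes, 5 were tested and 4 rose, all over 4-fold, with a list median of 6.08 on the log2 scale. Zscan4c measured 3.202, 0.695, 0.5299, 2.05 and 0.124 CPM in zygotes 1 to 5 and 195, 12.9, 118 and 29.4 in late 2-cell embryos 1 to 4 (log2 fold change 6.08 ± 0.86, adjusted p = 3.2e-05). Zscan4f measured 1.33, 0, 0.265, 0.732 and 1.48 and then 236, 20.3, 238 and 63.1 CPM (7.49 ± 0.83, adjusted p = 3.5e-06). No zygote reached any late 2-cell embryo in either gene, and late 2-cell replicate 2 was the lowest of its stage in both. Zscan4d rose by 3.93 ± 0.65 and Zscan4a, annotated as an unprocessed pseudogene, by 6.93 ± 0.61. Zscan4b did not pass the threshold at 2.097 and 3.62 mean CPM, and Zscan4e was under the filter with 0 and 1.303. Summed over the family the level was 15.5, 11.01, 5.17, 11.9 and 8.03 CPM in zygotes and 716, 70.8, 528 and 199 in late 2-cell embryos. Between 49.4% (Zscan4d) and 88.2% (Zscan4f) of the 50-base stretches of the 4 genes that rose occur in other genes, so how reads divide among the copies is uncertain.

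The other families of that stage behaved alike in most members. Of 32 tested genes (36 in the tables), 29 rose, all at least 4-fold, 1 fell and the median was 5.22, against 25.3% of all genes that rose as much. Zfp352, a zinc finger gene, measured 0.8005, 4.52, 10.3, 0.732 and 5.19 CPM in zygotes and 419, 42.6, 200 and 174 in late 2-cell embryos (5.58 ± 0.74, adjusted p = 1.8e-05). The ranges did not overlap, and late 2-cell replicate 2 was again the lowest of its stage. Tdpoz genes, which encode proteins with TRAF and POZ domains, went from nearly nothing to clear levels: Tdpoz4 had 3 counts over all zygotes and 54.9, 30.6, 20.8 and 30.9 CPM in late 2-cell embryos, and Tdpoz2 had none and then 26.1, 13.1, 16.6 and 19.5, at least 48.1-fold higher. Usp17lc, of a family of deubiquitinases, rose from 6.67 ± 3.29 to 134 ± 92.4 CPM, but late 2-cell replicate 2 at 10.4 CPM lay within the zygotes' range of 3.51 to 11.01. Of the 50-base stretches of Tdpoz4, Tdpoz2 and Usp17lc, 41.3%, 48.6% and 44.2% occur in other genes, so their share of the reads is uncertain.

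Not all of the 32 genes rose, and the call of 1 that did rested on few embryos. Tcstv1 was at 98.2, 96.7, 99.4, 112 and 64.2 CPM in zygotes and at 271, 21.3, 64.1 and 64.3 in late 2-cell embryos, where only replicate 1 exceeded the zygotes (0.16 ± 0.51, adjusted p = 0.79). Without that embryo its log2 fold change was -0.92 with an adjusted p of 0.029 (0.029 to 0.92 over the alternatives), and its sign was also negative in both FPKM fits, with a replicate block and with a length and GC trend removed. Its relative Tcstv3 passed the threshold at 244, 25.8, 16.1 and 149 CPM against 11.2 to 34.4, yet replicates 2 and 3 lay within the zygotes' range, and without replicate 1 it no longer passed (adjusted p = 0.053, against 0.00017 to 0.14 over the alternatives). Sp110, a nuclear body gene, was at 840 ± 67.2 and 740 ± 162 CPM and not past the threshold (-0.18 ± 0.19, with a positive sign when scaled by total counts or by FPKM).

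PRAME-like genes, which encode leucine-rich repeat proteins of germ cells and early embryos, were divided. Of 10 tested (14 in the tables) 7 rose, 6 of them at least 4-fold, and 2 fell at least 4-fold. Pramel4 went from 0.4002, 0, 1.59, 0.439 and 0 CPM to 230, 477, 203 and 283 (9.26 ± 0.63, adjusted p = 4.3e-08), and Pramel5 had 2 counts over all zygotes and 24.1 to 52.04 CPM afterwards. In contrast Pramef20 fell from 77.9 to 138 to 1.82 to 2.82 CPM (-5.61 ± 0.29) and Pramef12 from 92.7 to 314 to 17.04 to 39.8 (-2.92 ± 0.40). Of the 50-base stretches of Pramel4, 92.2% occur in other genes, so its share of the reads is uncertain.

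Obox genes, homeobox genes of oocytes and early embryos, showed a full exchange of members. All 7 were tested and all 7 passed, with 3 up and 4 down, each over 4-fold. Obox6 measured 0.8005, 1.16, 0.795, 1.32 and 2.84 CPM in zygotes and 449, 743, 334 and 517 in late 2-cell embryos (8.50 ± 0.40, adjusted p = 2.8e-09), and Obox8 measured 0.133, 0.811, 0.662, 0.146 and 1.36 and 242, 384, 209 and 314 (8.77 ± 0.44). Obox3 rose from 3.79 ± 0.259 to 213 ± 71.5 CPM (5.81 ± 0.27). The maternal members moved the opposite way. Obox5 went from 1624, 1731, 1760, 1753 and 1621 CPM to 65.01, 85.7, 93.9 and 108 (-4.27 ± 0.21, adjusted p = 3.6e-09), Obox1 from 1255 ± 91.8 to 35.2 ± 8.87 and Obox2 from 1061 ± 33.99 to 25.3 ± 3.48. Summed over the family the level dropped from 3992 to 4419 to 876 to 1423 CPM. Obox1 and Obox2 share about 51.2% and 60.7% of their stretches with other genes, mainly each other, and Obox3 overlaps Obox1 on the opposite strand. The deposited tables do not say whether strand was used in counting.

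Transcription factors linked to genome activation changed in both directions. Of 39 tested, 20 rose (14 at least 4-fold) and 12 fell (2 at least 4-fold). Duxf3, the mouse Dux gene that switches on 2-cell genes and endogenous retroviruses in stem cells, was present in zygotes at 16.4, 12.5, 34.6, 19.8 and 6.43 CPM and nearly gone in late 2-cell embryos at 0.141, 0, 0.845 and 1.32 (-4.95 ± 0.80, adjusted p = 1.0e-04), though 50.6% of its stretches occur in other copies and its share of their reads is uncertain. Nr5a2, an orphan nuclear receptor, rose from 18.9, 22.8, 19.7, 10.5 and 21.8 to 92.7, 108, 85.5 and 80.02 CPM (2.28 ± 0.25, adjusted p = 3.2e-06).

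The largest rises of the list were of factors nearly undetected in zygotes. Gabpa, an ETS-family activator of housekeeping genes, went from 1.87, 0.695, 4.11, 2.49 and 0.124 to 149, 397, 273 and 352 CPM (7.31 ± 0.58). Tead4, the Hippo pathway's DNA-binding partner later needed for trophectoderm, went from 0 to 0.618 to 14.5 to 44.96 (7.35 ± 0.76), and Rarg, a retinoic acid receptor, from 0.347 to 1.48 to 47.4 to 85.6 (6.29 ± 0.43). Klf5 rose to 26.8 ± 6.61 CPM, Myc to 28.6 ± 10.1 and Yy1 to 19.9 ± 6.104, all from means under 2 CPM in zygotes. Dppa4, which with Dppa2 opens 2-cell genes in stem cells, rose by 4.72 ± 0.38 and Dppa2, already at 145 to 196 CPM in zygotes, by 1.16 ± 0.25. Among those that fell were Pou5f1, which encodes OCT4, from 127 ± 58.9 to 26.5 ± 7.62 CPM (-2.26 ± 0.36), Klf17 from 1166 ± 158 to 497 ± 72.3 (-1.23 ± 0.18) and Nfya, a subunit of the CCAAT-binding factor NF-Y, from 48.9 ± 6.09 to 21.4 ± 8.29 (-1.20 ± 0.29, adjusted p = 0.0023, over the alternatives 0.00061 to 0.099, the last by FPKM).

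Genes of the ribosome rose together. Of 85 tested genes for cytoplasmic ribosomal proteins 81 rose (95.3%, against 36.3% of all genes), 61 at least 4-fold, and 1 fell, with a median of 2.88. Their summed level was 2973, 3247, 2807, 3063 and 2772 CPM in the 5 zygotes. In the 4 late 2-cell embryos it was 12960, 18540, 9230 and 16000 CPM, with the lowest embryo far above the highest zygote. Rpsa went from 0.667, 1.04, 1.46, 1.32 and 0.618 to 197, 243, 144 and 183 CPM (7.54 ± 0.31, adjusted p = 1.2e-09), and Rpl9 from 0.667, 1.62, 0, 0.732 and 1.61 to 109, 218, 68.9 and 183 (7.23 ± 0.57). Both proteins belong to the core of the ribosome, and both mRNAs were near 1 CPM in zygotes.

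Members with more mRNA in zygotes rose too. Rps6, a target of growth signalling, went from 34.5 to 47.96 to 179 to 378 CPM (2.75 ± 0.25), Rpl3 from 6.603 to 8.48 to 123 to 158 (4.23 ± 0.20) and Rpl41, the highest of the list in CPM, from 35.97 to 59.3 to 554 to 944 (3.99 ± 0.23). By FPKM Rpl41 moved from rank 811 to rank 18. The exception was Rpl17, which fell from 193 ± 37.7 to 88.4 ± 32.4 CPM (-1.13 ± 0.25, adjusted p = 0.0011). Rack1, Rps15a and Rps27l did not pass the threshold at 0.14, -0.36 and -0.15. Rps15a passed without late 2-cell replicate 2 (-0.50, adjusted p = 0.034, against 0.034 to 0.46 over the alternatives), and the signs of the other two turned under some settings. Ribosomal protein genes have many processed pseudogenes, and 26.6% (Rpl9) to 65.2% (Rps6) of the 50-base stretches of the 6 genes named with values occur in other genes.

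Promoters of ribosomal protein genes start in a run of pyrimidines, the terminal oligopyrimidine tract that lets growth signals control translation of the mRNA. The search was for a C followed by 6 pyrimidines on the gene's strand, lying wholly between 10 bases before and 15 after the start. It was found in 27 of 63 promoters (42.9%), against 11.7% of all tested genes and 7 of 89 (7.87%) for nucleolar assembly genes. The run of 3 members is in capitals, in windows as above: Rps6 at chr4:86857348-86857467 (minus strand), Rps9 at chr7:3703941-3704060 (plus strand) and Rps26 at chr10:128626487-128626606 (minus strand).
Rps6: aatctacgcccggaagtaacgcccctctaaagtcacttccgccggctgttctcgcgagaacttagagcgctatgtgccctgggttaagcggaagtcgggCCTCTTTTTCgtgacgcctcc
Rps9: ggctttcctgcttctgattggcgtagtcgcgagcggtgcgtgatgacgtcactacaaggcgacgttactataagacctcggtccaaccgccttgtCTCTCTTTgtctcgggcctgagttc
Rps26: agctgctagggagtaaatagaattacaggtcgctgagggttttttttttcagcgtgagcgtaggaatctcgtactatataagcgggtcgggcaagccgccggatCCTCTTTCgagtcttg
The motif was no more frequent among all genes that rose at least 4-fold (11.5%) than among all tested genes.

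Genes that assemble ribosomes in the nucleolus followed, with 80 of 108 tested rising (74.1%), 43 of them at least 4-fold, and 8 falling, at a median of 1.62. Nop16, a large-subunit assembly factor, went from 0, 0.116, 0.265, 0.146 and 0.124 CPM in zygotes to 131, 130, 114 and 184 in late 2-cell embryos (9.90 ± 0.39, adjusted p = 1.0e-09). Mak16, of the same pathway, rose from 0.247 to 3.97 to 142 to 242 CPM (6.81 ± 0.51), and Fbl, the fibrillarin methyltransferase of ribosomal RNA, from 1.04 to 2.78 to 15.1 to 54.97 (4.14 ± 0.44). The group was not uniform. Riok1, a kinase of small-subunit maturation, fell from 941 to 1091 to 33.99 to 97.05 CPM (-3.82 ± 0.29), and Bms1, a GTPase of the same subunit, from 445 to 606 to 51.7 to 95.3 (-2.92 ± 0.23). The abundant nucleolar proteins nucleolin (Ncl) and nucleophosmin (Npm1) had values of -0.23 ± 0.24 and -0.35 ± 0.24, neither past the threshold. The sign for Ncl was positive by FPKM and with a length and GC trend removed, and Npm1 passed without late 2-cell replicate 2 (-0.58, adjusted p = 0.041, against 0.041 to 0.51 over the alternatives).

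**Figure D2:**
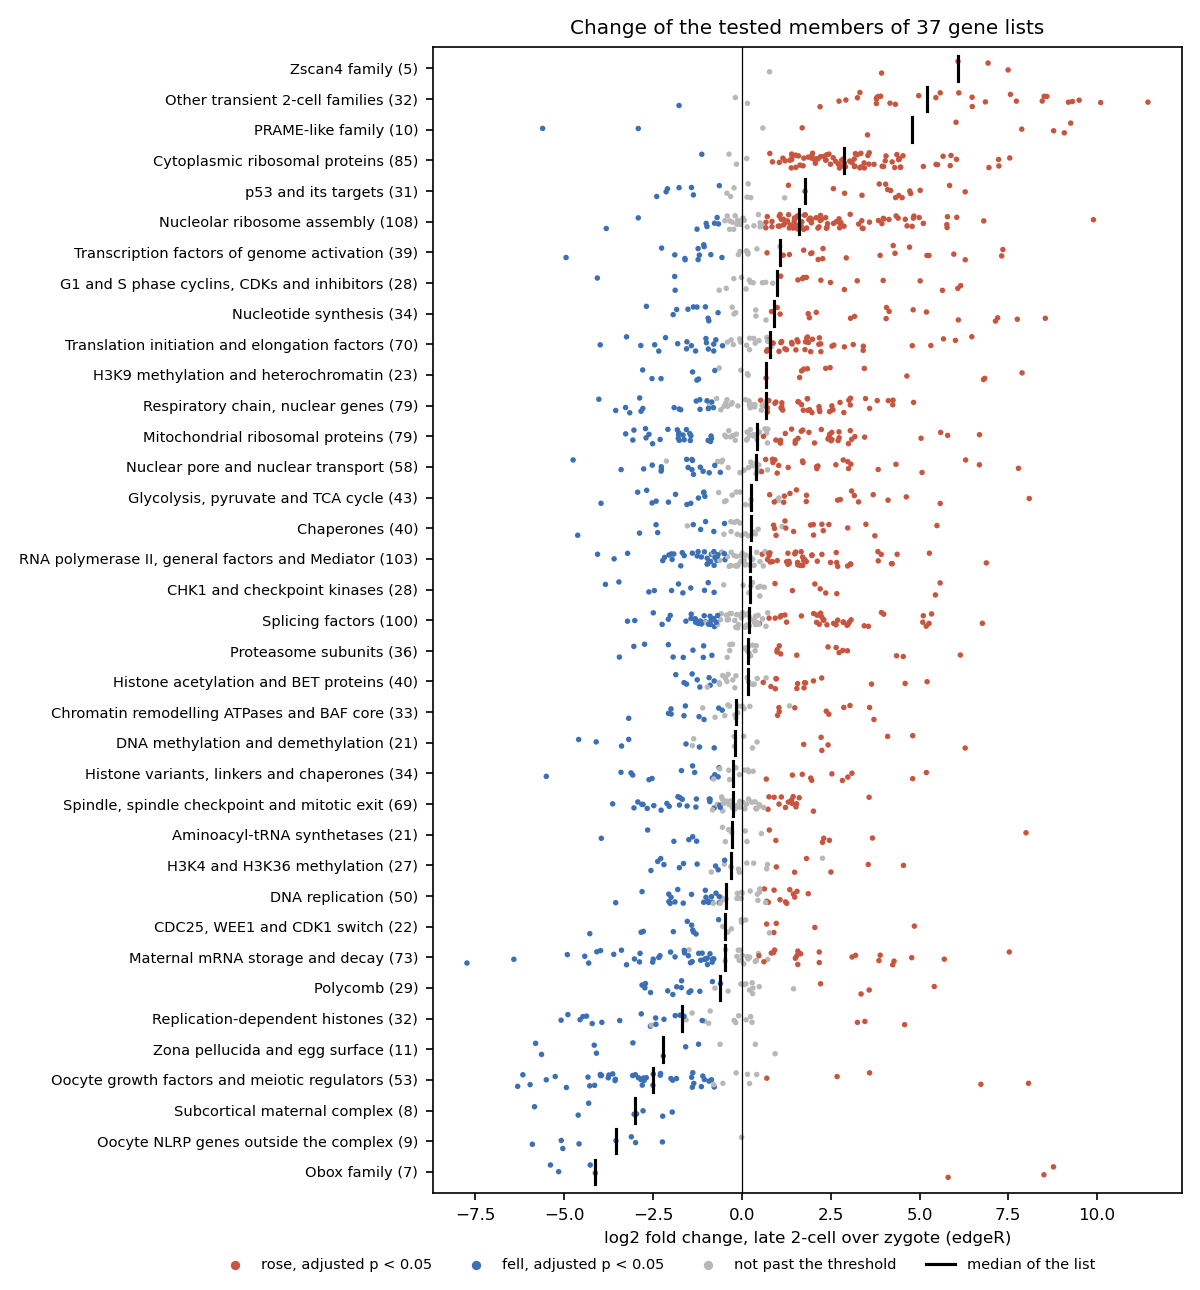
Log2 fold change (late 2-cell over zygote, edgeR) of each tested member of 37 gene lists, with the number tested in parentheses and a black bar at the list's median; red rose, blue fell and grey did not pass an adjusted p of 0.05. Cytoplasmic ribosomal proteins lie almost wholly to the right of 0, the subcortical maternal complex wholly to the left, and most other lists on both sides.

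Across other general machinery 33.3% to 54.3% of a list's tested genes rose, against 36.3% of all genes, and each list also held genes that fell. Of 103 genes for RNA polymerase II, its general factors and Mediator, 44 rose and 32 fell. Polr2a, the largest polymerase subunit, rose from 7.02 to 13.3 to 43.9 to 65.6 CPM (2.50 ± 0.28), while Polr2c, another subunit, fell from 959 to 1336 to 266 to 430 (-1.68 ± 0.20). Med29 and Med30, both of Mediator, moved in opposite directions, Med29 from 1.601 to 3.51 to 178 to 366 CPM (6.88 ± 0.31) and Med30 from 395 to 482 to 9.73 to 34.7 (-4.06 ± 0.33). Elob, of the elongin complex, rose by 5.28 ± 0.31. Tbpl2, the TBP relative that serves oocyte promoters, fell by 3.60 ± 0.75, from 14.3 to 18.3 to 0 to 3.099 CPM. Splicing factors were called in 37 (up) and 25 (down) of 100, among them Snrnp35 of the minor spliceosome (6.77 ± 0.69) and Prpf6 of the major one (-3.22 ± 0.29).

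Translation factors rose in 38 of 70 and fell in 18, with a median of 0.80. Eif1a, a scanning factor whose copies belong to the 2-cell programme, went from 0.397 to 1.51 to 25.96 to 77.8 CPM (6.01 ± 0.48). Eif4ebp1, which restrains cap-dependent translation, rose from 0 to 1.62 to 42.2 to 93.2 (6.47 ± 0.58). Eif5, the most abundant of the list in CPM, rose by 0.88 ± 0.19. Of those that fell, Eif4e1b is the oocyte form of the cap-binding protein (-3.25 ± 0.33) and Eef2k the kinase that slows elongation (-3.99 ± 0.31). Aminoacyl-tRNA synthetases rose in 7 and fell in 6 of 21.

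Protein quality control and transport were similarly mixed. Proteasome genes rose in 13 and fell in 10 of 36, from Psmb10, an immunoproteasome subunit (0 to 0.865 to 15.1 to 28.2 CPM, 6.15 ± 0.72), to Psma7, of the standard core (608 to 837 to 58.4 to 109, -3.04 ± 0.23). Among 40 chaperones 16 rose and 9 fell. Hspa1a, the inducible HSP70 that is among the first genes transcribed in mouse embryos, measured 3.74, 2.43, 1.59, 4.39 and 1.36 CPM in zygotes and 119, 79.6, 89.7 and 197 in late 2-cell embryos (5.49 ± 0.41). Hspa8, its constitutive relative, rose by 1.94 ± 0.24 and Hsp90aa1 fell by 2.37 ± 0.32. The reads of these 3 are uncertain in their division among copies, since 60.3%, 57.5% and 61.3% of their stretches occur in other genes (mainly Hspa1b for Hspa1a). The same holds for Impdh2, Set, Hdac1 and Aurkc, with 56.1%, 54.4%, 41.3% and 65.6%. Nuclear pore and transport genes rose in 24 and fell in 18 of 58.

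Energy and nucleotide metabolism were mixed as well. Nuclear genes of the respiratory chain rose in 40 and fell in 18 of 79, and mitochondrial ribosomal proteins rose in 33 and fell in 24 of 79. Uqcrc1, of complex III, rose by 4.83 ± 0.39 and Cox6a2, a tissue-specific subunit of complex IV, fell by 4.03 ± 0.51. In glycolysis and the TCA cycle 19 rose and 13 fell of 43. Ldhb, the lactate dehydrogenase subunit of oocytes, fell from 2354 to 2783 to 147 to 207 CPM (-3.96 ± 0.20), and Slc2a3, a glucose transporter, rose from 0.146 to 1.36 to 29.5 to 62.8 (5.58 ± 0.48). Nucleotide synthesis rose in 18 and fell in 10 of 34. Prps1, which makes the ribose phosphate donor of all nucleotides, went from 3.33, 0.695, 3.31, 3.81 and 2.23 CPM to 988, 836, 582 and 1554 (8.54 ± 0.45, adjusted p = 6.5e-09), from FPKM rank 10097 to rank 92. Impdh2, the rate-limiting enzyme of guanine nucleotides, rose from 0.463 to 3.83 to 269 to 719 CPM (7.75 ± 0.46).

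Most members of the maternal groups fell. The promoters of 3 of the genes are shown with the E-box letters CANNTG in capitals, the element of basic helix-loop-helix factors that run the oocyte programme. The share of promoters with these letters was counted in the maternal lists given below, but not in the list of mRNA storage and decay that holds Btg4. The windows are Rfpl4 at chr7:5116892-5117011 (minus strand), Btg4 at chr9:51115901-51116020 (plus strand) and Zar1 at chr5:72581065-72581184 (minus strand).
Rfpl4: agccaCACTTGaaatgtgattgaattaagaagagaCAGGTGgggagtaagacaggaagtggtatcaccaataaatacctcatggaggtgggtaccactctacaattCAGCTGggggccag
Btg4: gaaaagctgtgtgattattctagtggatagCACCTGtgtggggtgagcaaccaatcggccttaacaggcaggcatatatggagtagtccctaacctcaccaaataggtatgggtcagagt
Zar1: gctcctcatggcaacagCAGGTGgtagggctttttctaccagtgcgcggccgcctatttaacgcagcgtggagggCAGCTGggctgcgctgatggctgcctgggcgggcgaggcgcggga
CANNTG was present in the window from 250 bases before to 50 after the start in 64.2% of all tested genes, 70.5% of those that fell at least 4-fold, 62.8% of those that rose at least 4-fold, 34 of 39 oocyte growth and meiotic genes (87.2%) and 7 of 8 genes of the subcortical maternal complex. The letters are common in any window of this length, as the first of these shares shows.

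All 8 genes of the subcortical maternal complex, the protein assembly under the egg membrane that embryos need to pass the first divisions, fell, 7 of them at least 4-fold. Zbed3, by far the most abundant, measured 17790, 17220, 17750, 17260 and 18920 CPM in zygotes and 572, 850, 929 and 1232 in late 2-cell embryos (-4.31 ± 0.26, adjusted p = 1.8e-08). It held rank 5 by FPKM in zygotes and rank 152 afterwards. Ooep, a scaffold of the complex, went from 1842, 2569, 1859, 1799 and 2148 to 32.6, 32.3, 48.3 and 29.6 CPM (-5.84 ± 0.25), and Nlrp4f from 1633 to 2286 to 42.2 to 138 (-4.61 ± 0.36). The complex member Nlrp5, known as MATER, fell by 3.03 ± 0.23 and Padi6, a deiminase-like protein of the egg's lattices, by 2.96 ± 0.31. Summed, the complex took 23680, 23420, 23870, 22690 and 25440 CPM in zygotes and 921, 1271, 1473 and 1565 in late 2-cell embryos, and Zbed3 was the larger part of it.

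Oocyte NLRP genes outside the complex fell in 8 of 9, each at least 4-fold. Nlrp9b dropped from 711 to 842 to 9.57 to 16.04 CPM (-5.90 ± 0.23) and Nlrp14 from 1170 to 1730 to 102 to 251 (-2.99 ± 0.28). Of 11 zona and egg surface genes 8 fell and none rose. Izumo1r, which encodes JUNO, the egg's receptor for sperm, went from 309, 298, 279, 262 and 263 CPM to 3.102, 8.702, 4.51 and 3.803 (-5.80 ± 0.31, adjusted p = 7.2e-09). The zona genes, whose protein coat was removed before lysis, declined less: Zp2 from 170 ± 15.9 to 36.7 ± 16.2 CPM (-2.21 ± 0.29) and Zp3 from 125 ± 22.9 to 81.8 ± 37.9 (-0.61 ± 0.30, adjusted p = 0.08, not past the threshold, but past it without late 2-cell replicate 2, at -0.94 with an adjusted p of 0.0097, and with a length and GC trend removed, at -1.54 with an adjusted p of 0.00052, against 0.00052 to 0.24 over the alternatives). Oosp1, an oocyte secreted protein, fell by 1.58 ± 0.27 and was still at 483 to 1305 CPM.

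Oocyte growth factors and meiotic regulators fell in 42 of 53 (79.2%, against 33.7% of all genes), 29 at least 4-fold, and rose in 5. Bcl2l10, a BCL2 relative of oocytes, went from 5269, 6006, 6319, 6222 and 6528 to 61.9, 120, 215 and 240 CPM (-5.25 ± 0.39, adjusted p = 9.6e-08). Rfpl4, a RING finger protein of oocytes, went from 2751 to 3248 to 32.1 to 52.2 (-6.16 ± 0.24) and Oas1h, of the oligoadenylate synthetase family, from 371 to 484 to 1.69 to 9.14 (-6.31 ± 0.47). These 3 lost nearly all of their mRNA relative to the total.

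Others were removed only in part. Gdf9 and Bmp15, the growth factors by which oocytes steer their follicle, fell by 2.00 ± 0.43 and 3.56 ± 0.34, to 66.8 to 394 and 150 to 509 CPM. Spin1, a meiotic spindle protein, held 1780 to 2811 CPM after 10070 to 11150 (-2.30 ± 0.21), and Tcl1, a coactivator of AKT, held 440 to 1809 after 4767 to 5402 (-2.50 ± 0.36). Mos, the kinase that arrests the egg in metaphase, was low at both stages, 16.03 to 67.3 and 0.141 to 8.27 CPM (-3.74 ± 0.78), and Wee2, the oocyte's WEE1-type kinase, fell by 1.41 ± 0.29. Members of this list that rose included Rfpl4b, a paralog of Rfpl4, from 0.133, 0, 0, 1.17 and 0.371 to 151, 18.7, 57.9 and 130 CPM (8.07 ± 0.83), and Sohlh1, a germ cell helix-loop-helix factor, from 0 to 0.293 to 1.32 to 14.8 (6.73 ± 1.07).

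Genes that store and destroy maternal mRNA fell in 35 and rose in 21 of 73. Btg4, the adaptor that brings the CCR4-NOT deadenylase to maternal mRNA, went from 3049, 3331, 3155, 3640 and 3320 to 254, 230, 404 and 372 CPM (-3.39 ± 0.23, adjusted p = 4.0e-08). Cnot6l, a catalytic subunit of that deadenylase, fell by 2.01 ± 0.20. The translational regulators Cpeb1, Zar1 and Dazl fell by 3.61 ± 0.22, 4.91 ± 0.49 and 3.98 ± 0.24. Pabpn1l and Pabpc1l, the embryonic poly(A)-binding proteins, were removed almost wholly, from 32.5 to 105 to 0 to 0.827 CPM (-7.74 ± 0.68) and from 220 to 384 to 1.49 to 5.5 (-6.42 ± 0.37). Pabpn1, the somatic relative of the first, rose from 8.88 to 19.4 to 306 to 548 (4.78 ± 0.28), and Igf2bp1, an RNA-binding protein of embryonic cells, from 0 to 0.732 to 25.9 to 59.9 (7.53 ± 0.66).

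**Figure D3:**
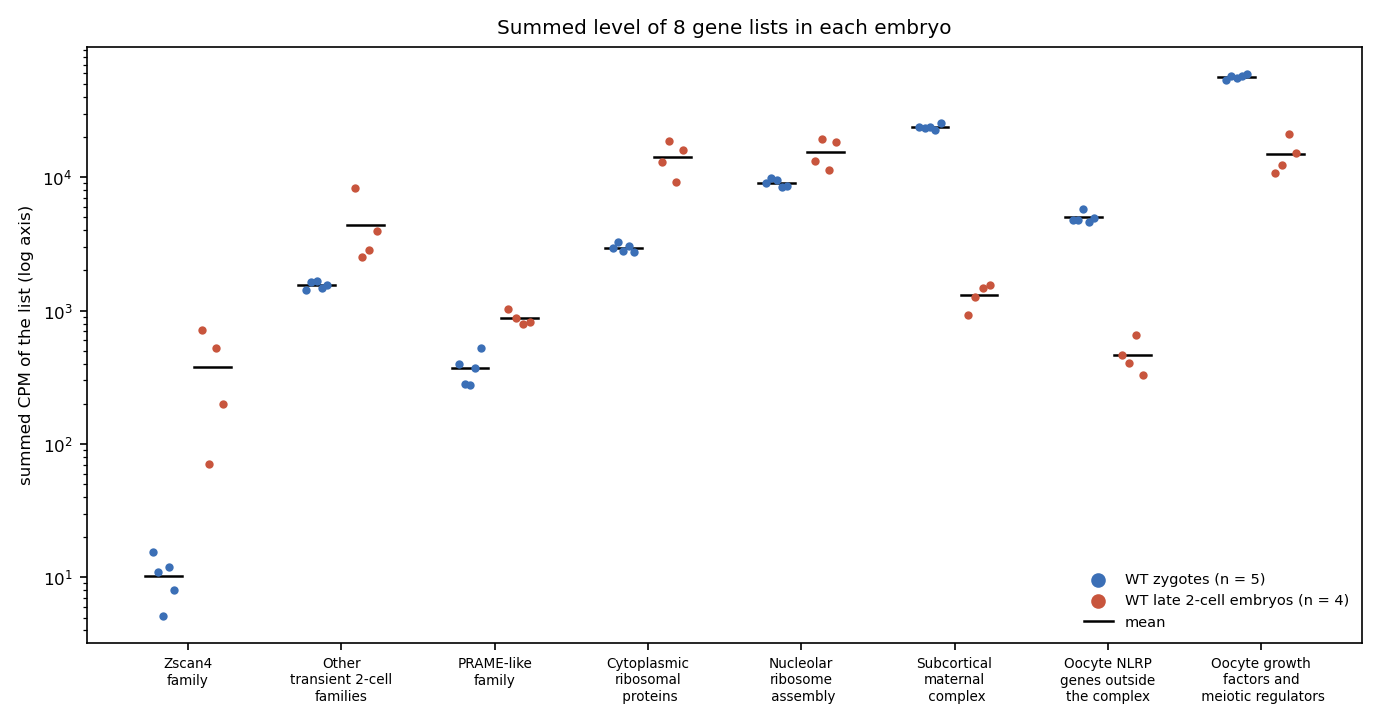
Summed CPM (log axis) of the members of 8 gene lists in each of 5 WT zygotes and 4 WT late 2-cell embryos, with a bar at the mean of each group. The subcortical maternal complex lies at 22690 to 25440 CPM in zygotes and 921 to 1565 in late 2-cell embryos, while the Zscan4 family rises from at most 15.5 to at least 70.8 CPM with the widest spread.

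Most chromatin lists held genes that rose and genes that fell. In DNA methylation and demethylation 7 rose and 7 fell of 21. Dnmt1, which copies methylation after replication, went from 629, 794, 640, 413 and 603 to 39.6, 57, 21.6 and 25.3 CPM (-4.10 ± 0.33, adjusted p = 1.6e-07), and Uhrf1, its recruiter, from 304 to 627 to 37.4 to 52.8 (-3.39 ± 0.25). Tet3, the oxidase that acts on the paternal genome, fell by 3.19 ± 0.24. Zfp57, which protects imprints, fell by 4.59 ± 0.21 and Dnmt3l by 1.19 ± 0.28, whereas Dppa3, which shields the maternal genome from demethylation, kept 1145 to 1830 CPM after 2413 to 2822 (-0.78 ± 0.18).

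Among writers and erasers of histone H3 lysine 4 and 36 methylation 6 rose and 10 fell of 27. The lysine 4 demethylase Kdm5b rose from 12.1, 23.2, 25.7, 10.8 and 15.6 to 267, 762, 198 and 414 CPM (4.55 ± 0.41) and Kdm5a by 3.56 ± 0.36, while Kdm1b, the oocyte's flavin-dependent demethylase, fell by 2.56 ± 0.25. Kdm5d, the Y-linked relative and the most abundant of the list in CPM, was at 325 to 498 and 148 to 450 and did not pass the threshold (-0.49 ± 0.28, adjusted p = 0.13), but fell by 0.80 without late 2-cell replicate 3 (adjusted p = 0.015, against 0.015 to 0.93 over the alternatives). Reads assigned to this Y-linked gene were present in every embryo of both stages, and their origin was not tested. In the lysine 9 and heterochromatin list 12 rose and 7 fell of 23, with Kdm4c, a demethylase, at 6.83 ± 0.64 and Setdb1, the silencer of retroelements, at -2.53 ± 0.18. Polycomb genes fell in 14 and rose in 4 of 29. Rbbp7, a histone-binding subunit shared with other complexes, fell by 2.73 ± 0.24, and Pcgf5, of a variant PRC1, rose by 5.42 ± 0.43. In histone acetylation and BET proteins 15 rose and 9 fell of 40, none of the falls reaching 4-fold, and Hdac1 rose from 6.27 to 9.94 to 151 to 258 CPM (4.60 ± 0.24). Remodelling ATPases and BAF core genes rose in 10 and fell in 10 of 33. Smarca4, which encodes BRG1, rose by 1.05 ± 0.22 and Chd1 by 3.60 ± 0.24.

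Histone variants, linkers and chaperones rose in 11 of 34 tested genes (32.4%, against 36.3% of all genes) and fell in 13 (38.2%, against 33.7%). H1foo, the oocyte linker histone, went from 935, 1424, 621, 1524 and 1325 to 17.5, 19.6, 28.6 and 37.03 CPM (-5.50 ± 0.36, adjusted p = 3.2e-08), and H2afz, which encodes H2A.Z, rose from 37.6, 34.3, 36.6, 34.99 and 40.3 to 890, 1129, 829 and 1269 (4.81 ± 0.20, adjusted p = 1.2e-09). H3f3a, a gene of the replication-independent H3 variant, fell by 0.67 ± 0.19 (adjusted p = 0.0069, over the alternatives 0.0014 to 0.058, the last when the 4 early groups were fitted together). Among histone chaperones, Npm2 of the oocyte fell by 3.07 ± 0.22 and Set rose by 5.19 ± 0.28. Of 69 replication-dependent histone genes, whose mRNAs end in a stem-loop and mostly lack poly(A), only 32 were tested, 17 fell and 3 rose, against 7 rises by DESeq2, 8 with no low-count filter and 5 in the 4-group fit and in each FPKM fit. Slbp, whose protein binds that stem-loop, fell from 2775 to 3986 to 258 to 344 CPM (-3.40 ± 0.21). Hist1h2aa fell from 13.5 to 22.5 to 0.423 to 0.563 CPM (-5.09 ± 0.45). Hist1h2ap rose from 5.33 to 11.3 to 34.5, 296, 48.2 and 406, and 93.1% of its 50-base stretches occur in other histone genes.

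The list of CHK1 and its checkpoint partners held 8 genes that rose and 11 that fell of 28 tested, Chek1 among the latter. Chek2, the kinase of the parallel branch, measured 1.33, 4.29, 2.65, 2.196 and 1.98 CPM in zygotes and 107, 160, 92.1 and 124 in late 2-cell embryos (5.58 ± 0.34, adjusted p = 1.7e-08). Rad9a, of the clamp that helps activate CHK1, rose by 5.45 ± 0.43. Atr, the kinase upstream of CHK1, fell by 1.44 ± 0.43 (adjusted p = 0.0085, over the alternatives 0.0021 to 0.17, the last when the 4 early groups were fitted together), from 9.64 to 21.6 to 3.05 to 9.03 CPM, and Timeless, a fork protection factor, by 3.46 ± 0.40.

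In the switch of CDC25 phosphatases, WEE1 kinases and CDK1 that starts mitosis, 5 rose and 10 fell of 22. The phosphatases that CHK1 restrains moved in opposite directions: Cdc25a fell from 61.3 to 93.3 to 14.9 to 27.6 CPM (-1.93 ± 0.26) and Cdc25b from 84.9 to 171 to 11.7 to 26.9 (-2.77 ± 0.32), while Cdc25c rose from 6.94, 3.36, 4.64, 4.25 and 5.69 to 102, 161, 171 and 143 (4.86 ± 0.27, adjusted p = 9.6e-09). Cdk1 rose by 2.05 ± 0.21 and Ccna2, one of its cyclins, by 0.97 ± 0.18, while the B-type cyclins Ccnb1, Ccnb2 and Ccnb3 fell by 1.38 ± 0.19, 2.84 ± 0.20 and 4.28 ± 0.65. Plk1, a mitotic kinase, fell by 1.29 ± 0.39. Wee1 was low at both stages, 3.95 to 8.27 and 4.298 to 22.96 CPM, and did not pass the threshold (0.78 ± 0.50, adjusted p = 0.18).

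G1 and S phase genes rose in 14 and fell in 3 of 28. Ccne1, cyclin E1, went from 10.1, 14.02, 10.3, 9.22 and 12.98 to 717, 867, 676 and 814 CPM (6.08 ± 0.21, adjusted p = 6.9e-10) and to FPKM rank 203 from rank 7138. Ccnd2, a D-type cyclin, reached 65.9, 20.3, 54.6 and 3.64 CPM from at most 1.17, with late 2-cell replicate 4 far below the others, and E2f7, a repressor of E2F targets, rose by 6.16 ± 0.63. Of the inhibitors, Cdkn1a rose from 1.601, 9.5, 5.83, 5.86 and 2.47 to 274, 135, 124 and 127 CPM (5.02 ± 0.46, adjusted p = 6.4e-07) and Cdkn1b fell from 18.01 to 27.8 to 0 to 3.94 (-4.07 ± 0.80). The p21 gene Cdkn1a is also the best known target of p53. On the list of p53 and its targets 17 rose (54.8%), 15 at least 4-fold, and 7 fell of 31. Sesn2, a stress-induced regulator of growth signalling, went from 2.802, 4.29, 4.504, 6.88 and 4.57 to 297, 306, 209 and 250 CPM (5.85 ± 0.27) and Gadd45b from 1.73 to 4.75 to 193 to 402 (6.29 ± 0.35). Mdm4, a p53 inhibitor and the most abundant of that list in CPM, was at 1597 to 2232 and 1254 to 2494 and did not pass the threshold (0.15 ± 0.22, negative by FPKM and past it with a length and GC trend removed, 0.65).

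DNA replication genes fell in 20 and rose in 12 of 50, none of the rises reaching 4-fold. Fen1, the flap nuclease of the lagging strand, rose by 1.87 ± 0.24 and Rfc3, of the clamp loader, fell by 2.81 ± 0.40. Spindle and mitotic exit genes fell in 23 and rose in 16 of 69. Pttg1, securin, fell from 2406 to 2474 to 260 to 393 CPM (-2.93 ± 0.19), and Aurkc, the Aurora kinase of germ cells, from 315 to 423 to 26.1 to 37.03 (-3.64 ± 0.20). Cdc20, the activator of the anaphase-promoting complex, rose by 1.05 ± 0.32 (adjusted p = 0.011), with late 2-cell embryos at 448, 1295, 382 and 837 CPM, of which replicates 1 and 3 lay within the zygotes' range of 268 to 507. Without late 2-cell replicate 2 it no longer passed (adjusted p = 0.065, against 0.0014 to 0.68 over the alternatives). Ncapd2, of condensin, rose by 3.58 ± 0.36.

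In several families a maternal member fell while a related gene rose, and 10 such pairs were set side by side by FPKM. They were chosen after their values had been seen, so they describe the pattern and carry no test. In all 10 the first member was the higher of the pair in every zygote. In 7 the second member was the higher in every late 2-cell embryo, and in 8 by the mean. The importin alpha genes were an example, with Kpna7 at 215 ± 28.2 FPKM and Kpna1 at 1.05 ± 0.401 in zygotes, and 9.03 ± 3.58 against 96.5 ± 4.62 in late 2-cell embryos. Another importin alpha gene, Kpna2, was above both at each stage, with 1094 ± 87.6 and then 836 ± 172 FPKM (-0.61 ± 0.20, adjusted p = 0.013, over the alternatives 0.0040 to 0.058), and 79.4% of its 50-base stretches occur in other genes. The heterochromatin proteins HP1 beta and gamma were another, with Cbx1 falling from 113 ± 15.8 to 16.7 ± 6.53 FPKM and Cbx3 rising from 0.55 ± 0.3199 to 139 ± 28.4. The lysine 9 methyltransferases Suv39h2 and Suv39h1 went from 35.3 ± 4.004 and 0.542 ± 0.443 to 8.99 ± 4.45 and 38.5 ± 23.4. Tet1 and Uhrf2 rose past the threshold in edgeR (log2 fold changes 2.25 ± 0.34 and 4.81 ± 0.67), but only to levels near those of Tet3 and Uhrf1, which they did not exceed by the mean. The edgeR tests of the 20 genes separately all passed the threshold, with Kpna7 at -4.75 ± 0.28, Kpna1 at 7.79 ± 0.30, Cbx1 at -2.79 ± 0.24, Cbx3 at 7.89 ± 0.39, Suv39h2 at -2.27 ± 0.28 and Suv39h1 at 6.80 ± 0.54.

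**Figure D4:**
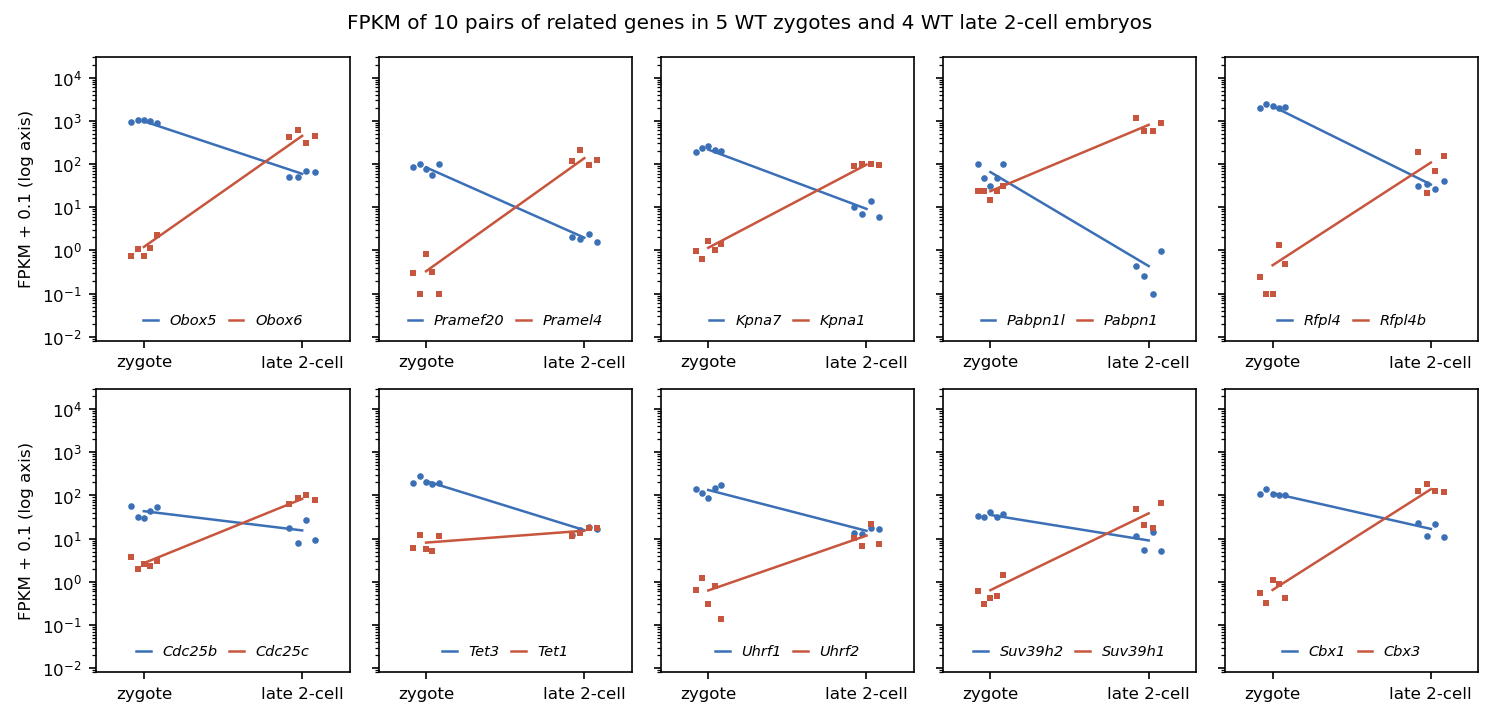
FPKM + 0.1 (log axis) of 10 pairs of related genes in 5 WT zygotes and 4 WT late 2-cell embryos, 1 point per embryo, with lines joining the group means. The first-named gene of each pair (blue) lies above the second (red) in every zygote, and in 7 pairs the order is turned in every late 2-cell embryo.

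The 4 late 2-cell embryos differed from each other more than the 5 zygotes did. Across genes with a mean of at least 10 CPM in the stage, the median coefficient of variation was 17.5% in zygotes (7395 genes) and 33.6% in late 2-cell embryos (8249 genes). It was 88.1% for 4 Zscan4 genes, 88.9% for 30 genes of the other transient families and 36.5% for 84 ribosomal protein genes. The transient families and the ribosome did not peak in the same embryo. Late 2-cell replicate 1 was the highest in 29 of 32 genes of the transient families outside Zscan4, and replicate 2 was the lowest in 21 of these and in 5 of 5 Zscan4 genes. Replicate 2, in turn, was the highest of the 4 in 62 of 85 ribosomal protein genes, and replicate 3 the lowest in 69.

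The embryos also differed in the genes that fell. Of the 2502 genes that fell at least 4-fold, replicate 3 held the highest late 2-cell value in 969 (38.7%) and replicate 1 the lowest in 948 (37.9%), against 31.0% and 26.4% of the 4117 genes not past the threshold. Of the 3476 that rose at least 4-fold, replicate 3 was the lowest in 1439 (41.4%), against 23.4%. Across all tested genes replicate 3 correlated best with the zygotes, at 0.508 to 0.535, and replicate 1 least, at 0.414 to 0.441. Gdf9, Bmp15 and Tcl1 were each highest in replicate 3, at 394, 509 and 1809 CPM, and lowest in replicate 1, at 66.8, 150 and 440. The labels give no hour of collection for single embryos.

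**Figure D5:**
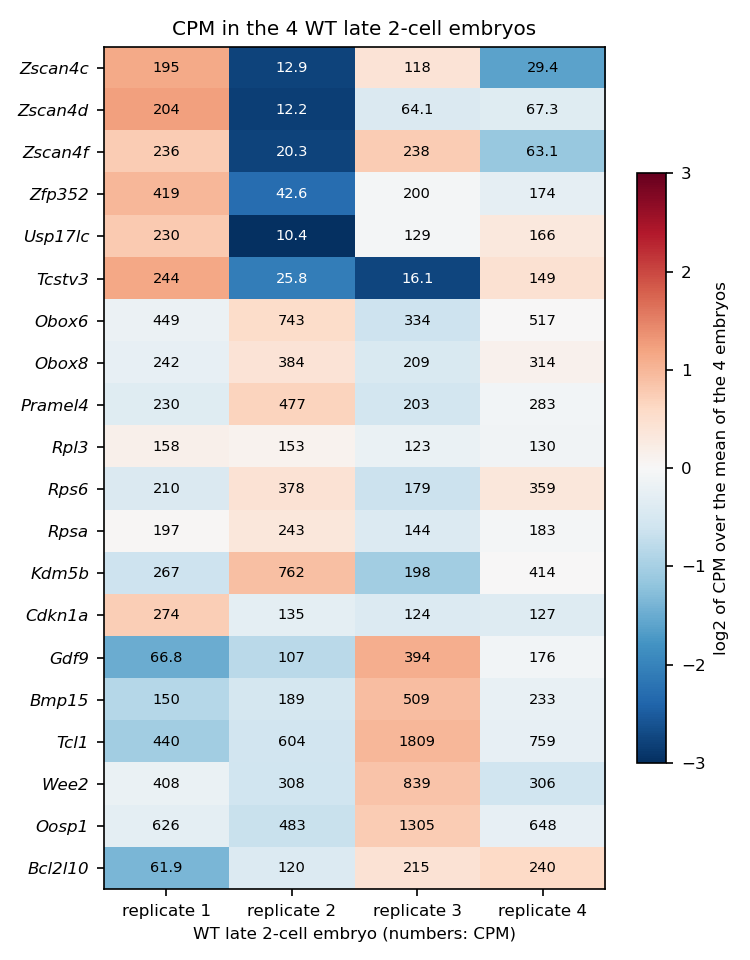
CPM of 20 genes in the 4 WT late 2-cell embryos, printed in each cell and coloured by the log2 of the value over the mean of the 4. Replicate 2 is blue for Zscan4, Zfp352 and Usp17lc and red for Obox6, Pramel4 and Kdm5b, and replicate 3 is red for Gdf9, Bmp15 and Tcl1.

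Markers of other cell types were looked at in every embryo. Of 26 cumulus and granulosa markers, cells that can cling to the egg, 6 passed the filter, 3 rose and 3 fell. The summed level was 322 to 445 CPM in zygotes and 160 to 274 in late 2-cell embryos. Serpine2 was most of it in zygotes, at 268 to 402, and was at 48.1 to 144 in late 2-cell embryos. The markers Inha, Lhcgr, Ptx3, Lum, Ereg and Hsd3b1, 6 of the 26, had no count in any of the 9 embryos, and Amh, Fshr, Foxl2 and Nr5a1 had means of at most 1.55 CPM. Cyp19a1, aromatase, was at 41.5, 37.2, 40.4, 45.8 and 47.1 CPM in zygotes and 0 to 3.64 afterwards, Amhr2 had 1 count over the zygotes and 99.1, 75.1, 73.8 and 54.7 CPM afterwards, and Gja1, connexin 43, rose by 7.08 ± 0.78. Sperm markers were tested for 5 of 14 genes, of which 2 rose and 2 fell, down to -3.09 on the log2 scale. All 14 summed to 162 to 226 and 166 to 214 CPM, with Prm1 at means of 0 and 0.361 and Prm2 at 3.95 and 0.454. Odf2 was the most abundant of them, and Ldhc and Tssk6, a lactate dehydrogenase and a kinase of the testis, rose past the threshold to 14.4 to 39.8 and 5.49 to 47.6 CPM. Fibroblast and blood markers passed the filter in 3 of 12, of which 1 rose, by 3.13 on the log2 scale, and 0 fell. All 12 summed to 29.9 to 64.4 and 56.1 to 115 CPM, mostly Pecam1, with Col3a1 and Ptprc at 0 in all 9 embryos.

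Markers of later lineages were mixed at these stages. Of 15 trophectoderm markers 9 were tested, 3 rose and 5 fell. Dab2, an endocytic adaptor and the most abundant of them in CPM, fell from 171 to 207 to 19.2 to 49.4 CPM (-2.68 ± 0.28, adjusted p = 2.1e-06). Cdx2 was at means of 0.133 and 0 CPM and Elf5 at 0 in all embryos, while Krt18, a keratin, rose from 0 to 1.72 to 4.298 to 27.6 (4.27 ± 0.82). Of 19 epiblast and primitive endoderm markers 10 were tested, 6 rose and 1 fell. Gata4, a GATA factor of primitive endoderm and the most abundant of these, rose from 9.61, 7.76, 11.8, 11.7 and 18.7 to 70.7, 65.8, 16.5 and 37.03 CPM (2.00 ± 0.41, adjusted p = 6.7e-04), with late 2-cell replicate 3 inside the zygotes' range. Nanog and Sox2 stayed under 1 CPM by the mean, whereas Fgf4 went from 0 in all zygotes to 10.2, 71.5, 22.2 and 24.96 CPM, at least 82.4-fold higher, and Zfp42, which encodes REX1, from 0.116 to 1.02 to 14.4 to 52.7 (6.34 ± 0.64). Markers of the labelled stages were present in every embryo of that stage. In zygotes Gdf9, Btg4, Bcl2l10 and H1foo were at 450 CPM or more, Zp3 at 90.5 to 143 and Mos at 16.03 to 67.3. In late 2-cell embryos Zscan4c, Zscan4d and Zfp352 were at 12.2 or more, Tdpoz4 at 20.8 to 54.9 and Usp17lc at 10.4 to 230. Not all of them separated the stages. Zp3 was still at 37.5 to 129 CPM in late 2-cell embryos, and the lowest late 2-cell value of Usp17lc lay within the zygotes' range.

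Genes that moved shared features only in part. Median promoter GC content was 60.3% for all tested genes with a promoter, 59.7% for those that rose at least 4-fold and 57.3% for those that fell at least 4-fold, and the median number of CpG in 300 bases was 20, 20 and 15. Median 3′ UTR length of protein-coding genes was 851 bases for all, 722 for the first and 743 for the second, against 965 for genes not past the threshold. Median transcript GC content was 49.6%, 51.5% and 48.7%. By chromosome, the share of tested genes that rose ran from 28.3% on chromosome 6 to 45.6% on chromosome 11, where median transcript GC was 48.3% and 52.4%. Removing a trend on length and GC from the fold changes left 9630 genes past the threshold of 13625 with the needed annotation, 47.9% of them up, against 51.9% in the unadjusted fit.

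R442Q embryos, injected with mRNA for a mutant CHK1, gave a separate set of 6 zygotes and 5 late 2-cell embryos. Of the 3476 genes that rose at least 4-fold in WT, 2999 were tested there, and 2610 rose, 0 fell and 389 did not pass. Of the 2502 that fell at least 4-fold, 2400 were tested, and 1963 fell, 1 rose and 436 did not pass. In a fit of all 4 groups the change itself differed between the genotypes in 1639 of 16199 genes (10.1%), with 497 higher and 1142 lower in R442Q. This count was 1085 with a replicate block, 1089 without WT zygote replicate 2 and 2526 by DESeq2. The difference passed in 419 (12.1%) of the first set and 218 of 2500 (8.72%) of the second. Since those sets were chosen by the WT embryos that also enter the difference, these shares are not free of that choice. Of the genes named with values above, 43 had such a difference, and many of them were chosen for the size of their change in these WT embryos. Ooep, of the maternal complex, changed by 3.04 ± 0.33 more in R442Q (adjusted p = 7.2e-06), so it fell less there, and Myc by -3.60 ± 0.75 (adjusted p = 0.0038), with a change of 0.87 in R442Q alone that did not pass the threshold (adjusted p = 0.14). The direction itself turned for H3f3a, which rose by 1.10 in R442Q (adjusted p = 0.0026), and for Smarca4, which fell by 1.23 (adjusted p = 0.020).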

How the data were processed

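The authors deposited 1 table of estimated counts and 1 of FPKM per stage, with gene symbols as rows. RSEM and the mm10 build are named per the submitters' processing notes; aligner, annotation and strand setting are not given in the sources used here. The deposited expected counts were joined by symbol, rounded to whole numbers and not otherwise changed. The deposited FPKM values, which the authors scaled for library size and length, served only to set genes side by side and for 2 alternative fits (limma 3.58.1 on log2(FPKM + 1) and log2(FPKM + 0.1), keeping genes that reached 1 FPKM in 4 or more embryos).

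Samples were grouped by title and characteristics. Genes were kept by filterByExpr (minimum count 10), scaled by TMM and tested in R 4.3.3 with edgeR 4.0.16 (quasi-likelihood, the 9 embryos only, Benjamini-Hochberg adjusted p under 0.05 over all tested genes). A 4-fold change means a log2 fold change of at least 2 past that threshold. With 5879281 counts or more per embryo, 3 counts are 0.348 to 0.496 CPM, and a gene at 0 in a stage was given 3 counts per library for a lower bound. Such bounds cover counting error only, since PCR copies were not told apart. The edgeR code was tested on simulated data.

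Alternatives were DESeq2 1.42.0, RLE size factors, total counts, no filter, all 4 early groups together, both FPKM fits, a replicate block, a length and GC trend removed, each embryo left out, and protein-coding genes only (chosen after seeing the data). Replicate numbers do not pair the stages.

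The members and lists were chosen with earlier results of these data known. Genes are named by a rule: stage and maternal hallmark genes, the 10 largest rises and falls without overlap and with a mean of at least 10 CPM in the higher stage, and in each list the highest in CPM and the 2 largest rises and falls at 5 CPM or more. Rarg, Klf5, Dppa4, Atr, Cdc25a, Wee1, Ccna2, Ccnd2, Zscan4b, Zscan4e, Rack1, Rps15a, Rps27l, marker genes at or near 0 and the members of the 10 pairs were named after their values were seen, and not every gene that the rule picks is reported here. Positions, UTR lengths and shared 50-base stretches come from GENCODE M21 (GRCm38), in which 98.6% of symbols were found. Promoter sequences are from RefSeq (GRCm38.p6), matched by symbol for 9903 of 13727 tested genes; for the families, members without an entry were left out.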

Additional observations from a re-analysis of the deposited data

Results flagged for a closer look

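One embryo stood apart from the others of its stage in 19 of 382 gene and stage groups of the named genes (4.97%), by the gap to its nearest neighbour as a share of the whole range of the group. The cut-off gives about 1 in 20 by chance only for normally distributed values. CPM were used without logs, and groups with a highest value under 1 CPM could not be flagged, so the chance rate here is not known. In late 2-cell embryos this was the highest value of Chek1 in replicate 4 (0.898), Atp1b2 in replicate 4 (0.883), Eef2k in replicate 4 (0.949), Eif4e1b in replicate 3 (0.916), Ooep in replicate 3 (0.841), Cbx3 in replicate 2 (0.865), Timeless in replicate 2 (0.94), Cdkn1a in replicate 1 (0.925) and Gja1 in replicate 2 (0.867), and the lowest value of Rps27l in replicate 3 (0.926). In zygotes it was the highest value of Cldn8 in replicate 2 (0.715), Pramel4 in replicate 3 (0.724), Obox6 in replicate 5 (0.745), Klf5 in replicate 3 (0.724), Myc in replicate 1 (0.751), Oas1h in replicate 1 (0.744), Cbx1 in replicate 2 (0.875), Suv39h1 in replicate 5 (0.749) and Ncapd2 in replicate 5 (0.769). No one embryo accounted for most of them.

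The change from zygote to late 2-cell differed between R442Q and WT embryos in 43 of the named genes, by an interaction term in edgeR with an adjusted p under 0.05. Many of these genes were named for the size of their change in the same WT embryos, so their share is no measure of how common such differences are. The number after each gene is its log2 change in R442Q minus that in WT. Among genes that rose in WT, it was negative for Stac2 (-5.77), Zfp622 (-6.68), Pramel4 (-3.63), Rarg (-3.52), Myc (-3.6), Nop16 (-2.94), Polr2a (-1.85), Slc2a3 (-2.27), Igf2bp1 (-4.61), Kdm5b (-1.86), Smarca4 (-2.43), Chek2 (-1.26), Cdc25c (-1.69), Ccne1 (-1.51), E2f7 (-3.3), Ncapd2 (-2.33), Sesn2 (-3.1), Kpna1 (-1.89), Gja1 (-3.68), Gata4 (-2.05) and Fgf4 (-6.39). It was positive for Rpl41, whose rise was larger in R442Q (1.24). Among genes that fell in WT it was positive for Npffr2 (5.94), Cldn8 (4.96), Obox5 (1.1), Obox2 (2.15), Hsp90aa1 (1.32), Ooep (3.04), Nlrp5 (1.06), Nlrp14 (1.75), Nlrp9b (1.78), Zp2 (1.01), Oosp1 (1.54), Oas1h (1.72), Dazl (1.56), Zfp57 (1.02), H3f3a (1.61), Npm2 (1.11), Ccnb3 (3.53) and Aurkc (1.43). It was negative for Eef2k (-1.78), whose fall was larger in R442Q. It was also negative for Kdm5d (-1.11), which did not pass the threshold in WT and whose reads were of untested origin. In R442Q itself H3f3a rose (1.10) and Smarca4 fell (-1.23), against their directions in WT, and Oosp1 (0.11), Ccnb3 (-0.61), Myc (0.87), Polr2a (0.78) and Gata4 (0.11) did not pass the threshold. AY036118, at 0 in all WT zygotes and with every stretch shared with another locus, had a fitted difference of -17.2 that depends on how counts of 0 are treated and is no bound.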

How the results depend on the processing

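Over 19 alternatives, 8344 to 11832 genes passed the threshold (9610 as reported), and 47.9% to 59.2% of them rose; of the genes that passed as reported too, 8193 to 9487 by setting, all had the same direction except 3 in each FPKM fit. Scaling by total counts moved the median of all tested genes to 0.18 and removing the length and GC trend to -0.20, so changes of that size are relative to it. Leaving out 1 embryo at a time gave 8936 to 10003 genes, 4765 to 5123 up and 4152 to 4880 down. With no low-count filter 5519 genes rose at least 4-fold, since 27748 genes were then tested. Of 178 named genes past the threshold, 172 stayed past it in the same direction in every alternative that tested them, and not every gene was tested in each. Atr, Cdc20, H3f3a, Kpna2, Nfya and Tcstv3 did not stay past it. Signs turned for Tcstv1 (-0.29 and -0.30 by FPKM with 1 and 0.1 added, -0.56 with a replicate block, -0.13 with length and GC removed, -0.92 to 0.48 with 1 embryo left out, the lowest without late 2-cell replicate 1), Sp110 (0.0044 by total counts, 0.29 and 0.30 by FPKM), Ncl (0.071 in both FPKM fits, 0.19 with length and GC removed), Mdm4 (-0.16 in both FPKM fits), Rack1 (-0.0031 with a replicate block, -0.0051 with length and GC removed, -0.075 to 0.31 with 1 left out) and Rps27l (0.033 by total counts), none past the threshold as reported. Chek1 ran from -4.07 to -3.67 with 1 embryo left out. Counts of list members moved as follows: 2 ribosomal proteins fell in either FPKM fit and 1 to 2 with 1 embryo left out; 1 to 2 transient family genes fell with 1 left out; 1 zona gene rose by DESeq2 and in the 4-group fit; 3 to 6 oocyte factors rose with 1 left out; 6 H3K4 and H3K36 genes fell in the 4-group fit; 7, 8, 5, 5 and 5 replication-dependent histones rose by DESeq2, with no filter, in the 4-group fit and in the FPKM fits; and 5 G1 and S phase genes fell with length and GC removed. The cause was not tested.

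The difference between R442Q and WT was called in 2526 genes by DESeq2, 1085 with a replicate block and 1089 to 1415 with 1 WT embryo left out. The same replicate numbers did not mark pairs, with correlations of deviations of -0.019, -0.060, 0.063 and 0.021, and a replicate block called 8738 genes for the change in WT (4417 up, 4321 down). Depth limits genes near 1 CPM, where 1 count is a large step.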
